A study of Mus musculus with 12 samples.

Results

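The effect of radiation alone was followed in MC38, a mouse colorectal cancer cell line, by comparing 3 libraries from cultures given 8 Gy of X-rays with 3 libraries from control cultures. They are 6 of the 12 libraries of the series, which also holds 3 libraries with nintedanib at 3 µM and 3 with nintedanib and 8 Gy together. Members were the 12262 genes, of 54532 in the deposited table, that reached an FPKM of 1 in 3 or more of the 6 libraries. FPKM are fragments scaled by gene model length and a size per library, which here was not the plain fragment total. The labels give 24 h for the radiation, nintedanib and combined treatments and no time for the controls. The submitters' design text gives 3 independent repeats and extraction of all groups' RNA together.

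Ionizing radiation breaks both DNA strands, and cells answer by stopping the cell cycle, repairing the breaks, and either resuming division or dying. The arrest before mitosis rests on the kinases ATM, ATR, CHK1 and WEE1, which hold back the cyclin B kinase CDK1. The transcription factor p53 drives a second arm through the CDK inhibitor p21 (Cdkn1a) and through pro-apoptotic genes. Cells that divide with damaged DNA can form micronuclei, and DNA from these can be sensed by cGAS and STING, which signal to type I interferon and its target genes.

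The 6 libraries held 16103528 to 18196615 fragments, recovered from the deposited values. An FPKM of 1 in a gene model of 1 kb stood for 16.4 to 18.7 fragments, and these totals set counting error only. Correlations of log2(FPKM + 1) between libraries were 0.984 to 0.988 within the 2 groups and 0.971 to 0.978 between them. Of 11 epithelial markers only Cdh1 (E-cadherin) passed the filter on low values, at 4.12 to 4.87 FPKM in controls and 5.47 to 5.93 after radiation, while Epcam and Cldn4 were at 0 in all 6 libraries and Krt8 and Krt18 stayed below 0.32. All 13 mesenchymal markers passed it, with Vim (vimentin) at 546 to 618 FPKM in controls. The summed level of the epithelial list was 5.04 to 5.88 FPKM in controls and 6.83 to 7.20 after radiation, and that of the mesenchymal list was 948 to 1040 and 883 to 1040. The leukocyte list summed to 12 to 13.3 FPKM in controls and 12.5 to 14 after radiation, carried by Cd14 and Cd68, with Cd3e, Itgam, Adgre1 and Nkg7 at 0. No endothelial marker passed the filter.

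Radiation changed 2334 of the 12262 genes (19%) at an adjusted p under 0.05 (limma, all 12 libraries in 1 fit, Benjamini-Hochberg over the genes tested). Of these, 1019 rose (8.31% of genes tested) and 1315 fell (10.7%). The split between rises and falls depended on scaling: rises made up 43.7% of the changes on the FPKM as deposited, 69% with values rescaled to a common sum and 59% with values rescaled by fragment totals. Those scalings moved the median of all genes, -0.04 (log2), by 0.09 and 0.05. Most changes were small, and 72 genes (0.587%) changed at least 2-fold on the log2(FPKM + 1) scale, 53 upward (0.432%) and 19 downward (0.155%). The groups did not overlap for 5244 genes (42.8%), 2112 with higher (17.2%) and 3132 with lower values (25.5%) after radiation. Without radiation library 2 the count of changed genes was 1153, without control library 3 it was 1292, without control library 2 it was 1358, and without radiation library 1 it was 1534. Without control library 1 or radiation library 3 it was 1590 and 1597. In the 11 settings that left out no library it was 1719 to 2848, and no gene called here changed sign in any of these settings.

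Genes that carry out mitosis rose together. Lists of mitotic cyclins and kinases, mitotic kinesins, kinetochore and spindle checkpoint genes, and spindle and cytokinesis proteins together held 118 genes, every one of which passed the filter on low values. Of these 89 rose (75.4%, against 8.31% of all genes tested) and none fell, with a median log2 change of 0.50 against -0.04 for all genes. The groups did not overlap, with higher values after radiation, for 104 of them (17.2% of all genes). They supplied 12 of the 53 genes that rose at least 2-fold. Without single libraries 70 to 79 of them rose. In bulk RNA, more cells in mitosis or the phase before it and more of this RNA per cell cannot be told apart.

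Among the regulators that start mitosis, Ccnb2 (cyclin B2, a partner of CDK1) stood at 52.9, 56.2 and 53.9 FPKM in the controls and at 128, 121 and 122 after radiation. The radiation libraries were all above the controls, by 1.17 ± 0.09 (log2, SE; limma adjusted p = 5.5e-05). Ccnb1 (cyclin B1) was at 39.9, 35.7 and 41.0 FPKM in controls and 89.3, 82.2 and 79.1 after radiation, a rise of 1.09 ± 0.10 (limma adjusted p = 9.5e-05). Cdk1 itself went from 27.4, 27.2 and 26.1 FPKM to 52.8, 43.5 and 43.8, again without overlap (0.77 ± 0.12, limma adjusted p = 0.0022). Aurka, the kinase of spindle poles, stood at 53.9, 55.0 and 55.0 FPKM in controls and 130, 111 and 118 after radiation (1.12 ± 0.10, limma adjusted p = 9.0e-05). Cdkn3, a phosphatase that acts on CDKs, had 10.4, 11.1 and 10.4 FPKM in controls and 29.2, 27.6 and 24.7 after radiation, the largest change of the list (1.27 ± 0.12, limma adjusted p = 0.00011). The phosphatases Cdc25b and Cdc25c, which activate CDK1, rose by 0.91 and 0.75, and the polo kinase Plk1 by 0.63. Of 25 mitotic cyclins and kinases 20 rose and the other 5 did not pass. Aurkb, which works at the centromere and midzone, was among those 5, at 41.5, 43.0 and 43.7 FPKM in controls and 50.5, 43.0 and 49.1 after radiation, with overlap (0.15 ± 0.09, limma adjusted p = 0.30). Wee1, the kinase that restrains CDK1, rose by 0.37 ± 0.08 (limma adjusted p = 0.011).

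The machinery of the spindle rose with these regulators. Kinesins, motor proteins on microtubules, gave 13 rises of 14. Kif20a, the motor of the central spindle, stood at 27.6, 26.3 and 28.9 FPKM in controls and 62.0, 62.6 and 66.5 after radiation (1.18 ± 0.09, limma adjusted p = 5.5e-05). Of 47 kinetochore and checkpoint genes 33 rose and none fell, although without radiation library 2 the count was 20. Cenpf, a large kinetochore protein, went from 18.2, 13.9 and 17.4 FPKM in controls to 30.5, 37.3 and 35.3, and the lowest radiation library lay above the highest control. Sgo2a, which protects cohesion at centromeres, rose by 0.94 ± 0.07 and Bub1b, a checkpoint kinase, by 0.67 ± 0.06 (limma adjusted p = 5.5e-05 and 8.3e-05). Of 35 spindle and cytokinesis genes 26 rose. Knstrn, a kinetochore-bound spindle protein, showed the smallest adjusted p of any gene tested: 17.9, 18.3 and 18.4 FPKM in controls against 42.4, 42.4 and 42.5 (1.18 ± 0.06, limma adjusted p = 1.1e-05). Aspm, which focuses spindle poles, was at 16.7, 13.02 and 16.3 FPKM in controls and 33.6, 37.3 and 38.6 after radiation (1.203 ± 0.11, limma adjusted p = 9.5e-05). Of 13 tubulin genes 7 rose (8.31% of all genes did), among them Tubb2b by 0.93 and Tubb3 by 0.71.

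**Figure D1:**
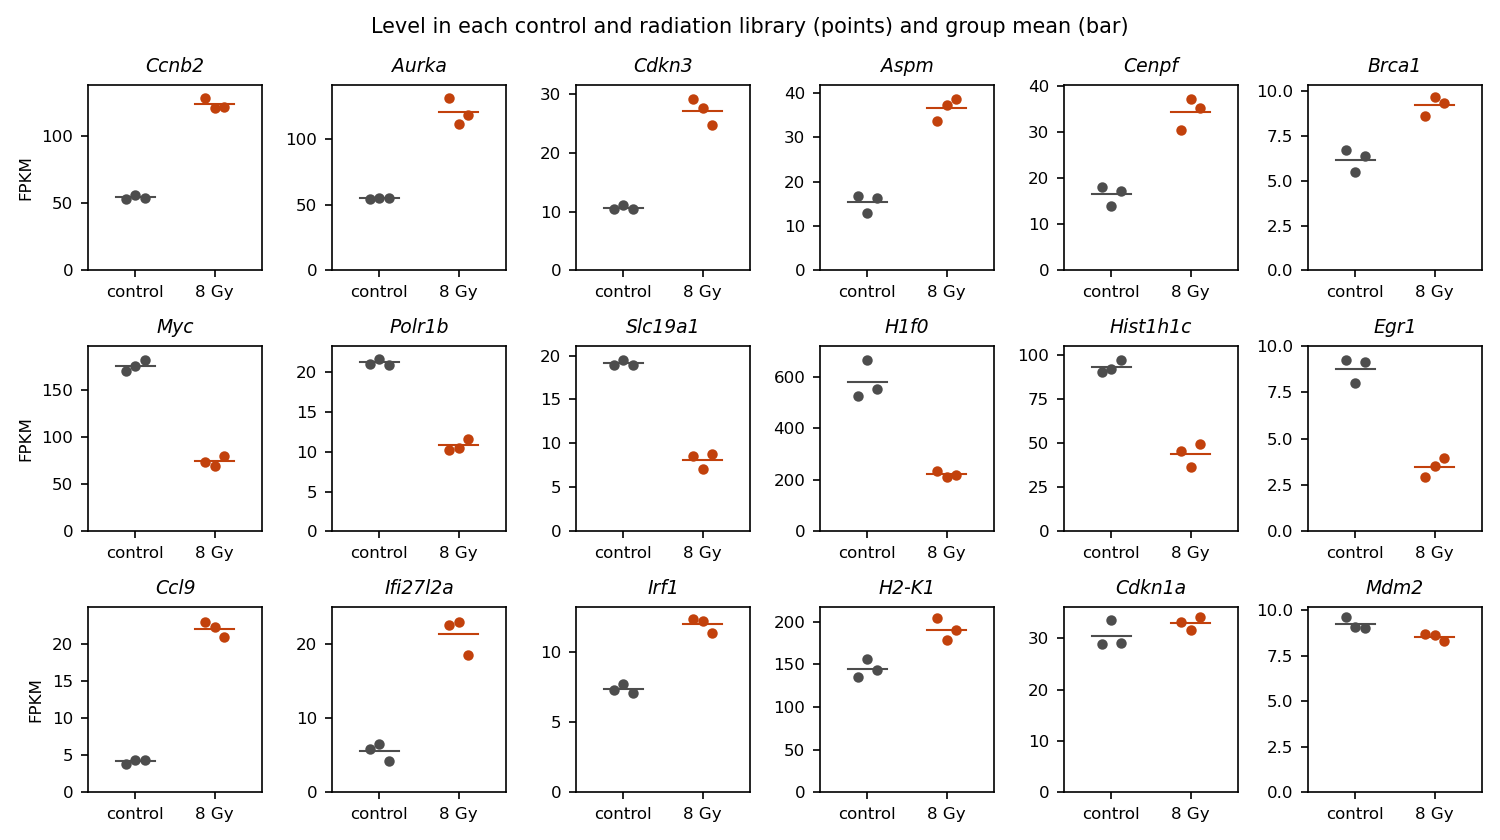
FPKM of 18 genes in the 3 control (grey) and 3 radiation (orange) libraries; points are libraries and short bars group means, and each vertical axis starts at 0. Mitotic genes such as Ccnb2 (52.9 to 56.2 against 121 to 128) and falls such as Myc (170 to 182 against 68.9 to 79.6) separate fully, whereas Cdkn1a overlaps.

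Exit from mitosis was represented by Ube2c and Cdc20, the ubiquitin-conjugating enzyme and the activator of the anaphase-promoting complex. Ube2c had 92.7, 99.9 and 104 FPKM in controls and 217, 174 and 190 after radiation (0.96 ± 0.12, limma adjusted p = 0.00063), and Cdc20 rose by 0.74 ± 0.12. The complex as a list of 22 tested genes had 4 rises and 1 fall (8.31% and 10.7% of all genes), with a median of 0.04. The fall was lost without any control library or radiation library 1 or 2. Of 26 condensin, cohesin and other chromosome genes 6 rose and 1 fell (8.31% and 10.7% of all genes). The rises were 3 without control library 2 or radiation library 2. Top2a, the topoisomerase of chromosome condensation, went from 114, 105 and 114 FPKM to 161, 166 and 164 (0.56 ± 0.08, limma adjusted p = 0.0012). The fall was Stag1, a cohesin subunit, at 13.6, 12.1 and 13.2 FPKM in controls and 8.11, 8.68 and 8.47 after radiation (-0.57 ± 0.08, limma adjusted p = 0.0013). Mki67, a widely used label of cycling cells, overlapped between groups at 83.9, 64.7 and 77.4 against 81.7, 98.9 and 98.3 FPKM and did not pass (0.30 ± 0.12, limma adjusted p = 0.10).

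Factors known to transcribe these genes were examined next. Foxm1, a forkhead factor of the G2 phase, stood at 30.5, 29.6 and 29.7 FPKM in controls and 37.1, 36.1 and 38.1 after radiation (0.30 ± 0.08, limma adjusted p = 0.024), but this call was lost without any 1 of the 6 libraries (adjusted p of 0.054 to 0.076). E2f2, an activator of cell cycle genes, rose by 0.66 ± 0.12 (limma adjusted p = 0.0037). Of the 23 transcription regulators 5 rose and 2 fell (8.31% and 10.7% of all genes tested), against 6 and 8 rises and no fall under the 2 rescalings, with 1 or 2 rises without control library 2 or 3 or any radiation library and 0 or 1 falls without any 1 of the 6.

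Many promoters of mitotic genes, though not all, hold a short element, the cell cycle genes homology region (CHR). It binds the MuvB complex together with B-MYB or FOXM1 in dividing cells and with repressors in resting ones. RefSeq promoters on GRCm38.p6, 250 bases before to 50 after a start site, were matched by gene to 8655 of the 12262 genes, taking the start nearest to the deposited one. The CHR, TTTGAA or TTCGAA on either strand, stood in 57 of 97 promoters of the 4 mitotic lists (58.8%), in 13.7% of the promoters of genes tested and in 19.2% of those in the RefSeq table. Among genes that rose it stood in 23.7% and among genes that fell in 10.6%. The CCAAT box, CCAAT on either strand, which binds NF-Y, was in 69.1% of mitotic promoters, 39.4% of all genes tested, 48.5% of genes that rose and 31.5% of genes that fell. The 2 motifs may overlap at their edges, and a match describes the sequence and is not a measured binding site. Of 25 named mitotic genes examined for display, 18 held the CHR. The promoters of 5 of them are given to show its place near the start site, from 250 bases before to 30 after it, with CHR and CCAAT matches in capitals. They lie at chr14:46760291-46760570 (Cdkn3, plus strand), chr1:139454523-139454802 (Aspm, plus), chr9:70421525-70421804 (Ccnb2, minus), chr1:189688057-189688336 (Cenpf, minus) and chr19:38054791-38055070 (Cep55, a cytokinesis protein, plus).
Cdkn3: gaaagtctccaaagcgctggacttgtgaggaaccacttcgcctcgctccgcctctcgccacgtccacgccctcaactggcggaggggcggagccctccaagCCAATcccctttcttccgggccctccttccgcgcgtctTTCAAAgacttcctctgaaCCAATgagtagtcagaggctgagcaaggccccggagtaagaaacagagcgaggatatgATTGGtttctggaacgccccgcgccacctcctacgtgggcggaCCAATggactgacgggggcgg
Aspm: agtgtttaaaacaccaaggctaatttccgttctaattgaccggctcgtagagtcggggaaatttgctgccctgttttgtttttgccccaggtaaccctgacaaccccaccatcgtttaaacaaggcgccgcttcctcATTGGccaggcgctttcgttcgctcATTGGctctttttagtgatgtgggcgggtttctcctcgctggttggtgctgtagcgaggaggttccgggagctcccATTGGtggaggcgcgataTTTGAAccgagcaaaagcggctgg
Ccnb2: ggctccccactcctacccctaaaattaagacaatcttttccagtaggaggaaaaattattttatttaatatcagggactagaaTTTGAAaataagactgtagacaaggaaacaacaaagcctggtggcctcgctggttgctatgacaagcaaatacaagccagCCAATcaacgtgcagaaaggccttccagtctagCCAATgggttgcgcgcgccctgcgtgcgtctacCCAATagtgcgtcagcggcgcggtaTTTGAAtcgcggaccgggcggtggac
Cenpf: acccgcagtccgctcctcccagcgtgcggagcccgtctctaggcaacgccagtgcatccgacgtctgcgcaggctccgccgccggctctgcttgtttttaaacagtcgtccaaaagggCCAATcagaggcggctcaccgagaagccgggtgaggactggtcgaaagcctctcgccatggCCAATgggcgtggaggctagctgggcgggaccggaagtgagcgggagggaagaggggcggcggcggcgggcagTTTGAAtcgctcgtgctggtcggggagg
Cep55: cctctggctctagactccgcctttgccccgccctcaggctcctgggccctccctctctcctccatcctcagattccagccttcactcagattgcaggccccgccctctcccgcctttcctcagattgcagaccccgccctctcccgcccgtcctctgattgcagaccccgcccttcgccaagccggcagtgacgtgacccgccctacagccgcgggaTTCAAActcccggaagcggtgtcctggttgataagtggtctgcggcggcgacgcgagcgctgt
In Aspm, Ccnb2 and Cenpf the CHR begins 6, 4 and 2 bases after the start site, with CCAAT boxes upstream of it, and Ccnb2 holds a further CHR at -167. In Cdkn3 it begins at -111 on the reverse strand, between CCAAT boxes, and in Cep55 at -33 with no CCAAT box in the window. Not every gene that rose carries these letters: the windows of Knstrn, Nusap1 and G2e3 hold neither motif.

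**Figure D2:**
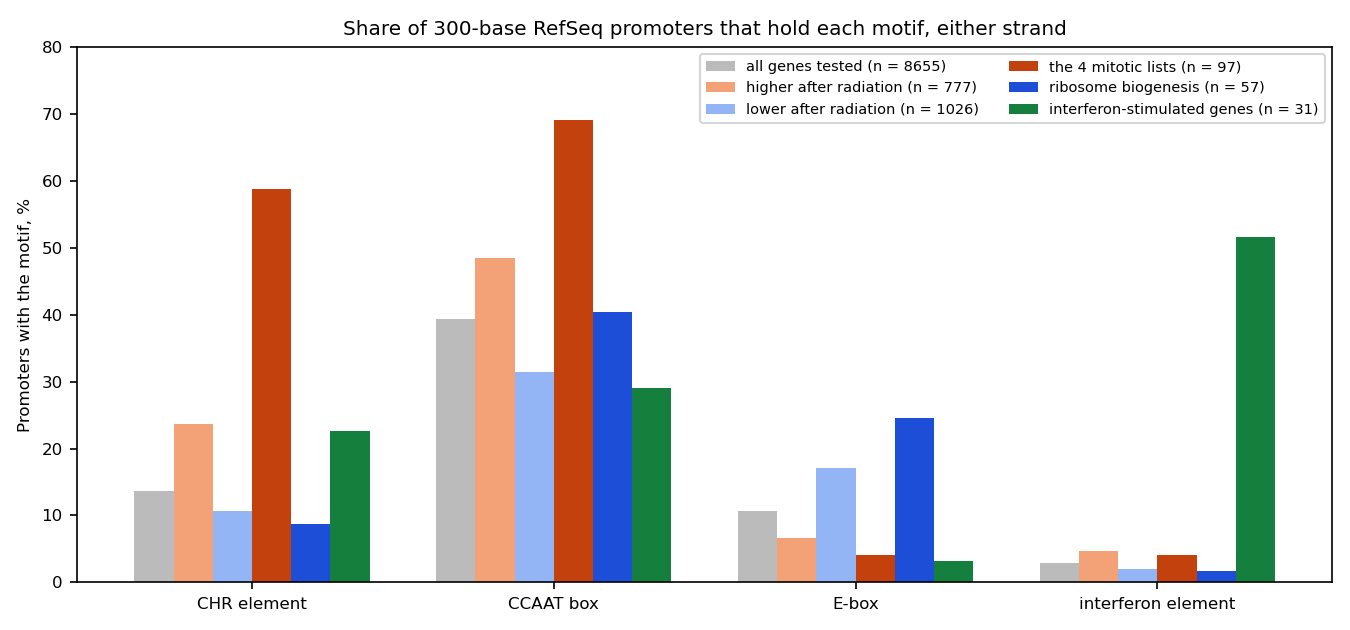
Bars give the percentage of promoters that hold each of 4 motifs on either strand, for all genes tested, genes that rose, genes that fell and 3 gene lists; n is the number of genes with a RefSeq promoter. The CHR is in 58.8% of mitotic promoters against 13.7% of all, and the interferon element in 51.6% of interferon-stimulated genes against 2.88%.

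Of 60 DNA replication genes 13 rose and 4 fell (8.31% and 10.7% of all genes tested), with a median of 0.18, and 36 lay above controls without overlap (17.2% of all genes). Under the 2 rescalings 22 and 20 rose and 2 fell in each, and in a fit of the 6 libraries alone 25 rose and 5 fell. Without single libraries the counts were lower: 2 to 7 rose without any 1 of the 6, the fewest without radiation library 2, and 1 or 2 fell without any control library or radiation library 2 or 3. Orc1, the large subunit of the origin recognition complex, stood at 3.77, 3.16 and 3.90 FPKM in controls and 5.87, 7.49 and 7.05 after radiation (0.76 ± 0.12, limma adjusted p = 0.0020). Dbf4, the activator of the CDC7 kinase, rose by 0.50 ± 0.09 (limma adjusted p = 0.0032). In the other direction, Ung, the uracil glycosylase of base excision repair, fell from 3.54, 3.70 and 3.11 FPKM to 1.16, 1.47 and 1.499 (-0.91 ± 0.14, limma adjusted p = 0.0015).

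Of 36 homologous recombination genes, which repair breaks from the sister chromatid, 12 rose and 3 fell, against 8.31% and 10.7% of all genes, with a median of 0.21. Without single libraries 8 to 10 rose and 0 or 1 fell. Brca1, which directs end resection, was at 6.70, 5.45 and 6.34 FPKM in controls and 8.59, 9.65 and 9.33 after radiation (0.51 ± 0.10, limma adjusted p = 0.0067). The groups did not overlap. Gen1 and Blm, which resolve joint molecules, rose by 0.52 each. Of 19 Fanconi pathway genes 3 rose and 2 fell (8.31% and 10.7% of all genes), with a median of 0.11. Fancg and Fancd2 rose by 0.66 and 0.51, and Faap100 fell, a call kept in all 16 other settings run. Without control library 1 or 3 or radiation library 2 or 3 the falls were 1. Non-homologous end joining, which religates broken ends through the cycle, had 2 rises and 2 falls among 25 genes (8.31% and 10.7% of all genes), with a median of 0.01. Without any 1 of the 6 libraries 0 or 1 rose, and without any but control library 3 0 or 1 fell; a replicate block gave 0 rises and 1 fall. Of 36 genes of base excision, nucleotide excision and mismatch repair 1 rose and 2 fell, both below the shares of all genes, and 1 fell without any 1 of the 6 libraries.

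Checkpoint signalling had 7 rises and 1 fall among 22 genes (8.31% and 10.7% of all genes tested). Its median was -0.0008, with 11 positive and 11 negative differences. The rises were 3 or 4 without control library 2 or 3 or radiation library 2 or 3. The fall was lost without any 1 of the 6. Mdc1, the adaptor at damaged chromatin, showed the largest rise, from 20.5, 17.4 and 20.4 FPKM to 29.2, 33.4 and 33.8 (0.70 ± 0.12, limma adjusted p = 0.0029). Chek1, which encodes CHK1, rose by 0.37 ± 0.08, a call lost without radiation library 2 (limma adjusted p = 0.013 and 0.054). The apical kinases did not pass: Atm was at 5.31, 3.82 and 4.58 FPKM in controls and 3.45, 3.92 and 4.198 after radiation (-0.19 ± 0.13), and Atr differed by 0.02 ± 0.11.

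Targets of p53 showed no common direction at 24 h. Cdkn1a, which encodes p21, stood at 28.9, 33.6 and 29.0 FPKM in controls and at 33.0, 31.5 and 34.2 after radiation, and the groups overlapped (0.11 ± 0.12, limma adjusted p = 0.58). Mdm2, the ubiquitin ligase that limits p53, was at 9.66, 9.07 and 9.04 FPKM in controls and 8.70, 8.64 and 8.33 after radiation (-0.10 ± 0.06, limma adjusted p = 0.30). Trp53 itself was at 133, 140 and 138 FPKM in controls and 126, 118 and 119 after radiation and did not pass (limma adjusted p = 0.12). Of 38 tested targets 3 rose and 5 fell, against 8.31% and 10.7% of all genes, with a median of -0.01 that became 0.08 and 0.04 under the 2 rescalings. The rises were Ckap2, Psrc1 and Gtse1, which act in mitosis. Among the falls, Bbc3 (PUMA, a pro-apoptotic BCL2 protein) went from 32.1, 40.8 and 33.5 FPKM to 18.6, 16.1 and 17.4 (-0.99 ± 0.16, limma adjusted p = 0.0025), and Plk3 from 11.1, 12.2 and 12.6 to 7.03, 5.81 and 7.43 (-0.75 ± 0.12). Bax, the pore-forming partner of PUMA, fell by 0.53 on the log2 scale, a call lost without 5 of the 6 single libraries (adjusted p of 0.056 to 0.092). The falls numbered 3 without control library 2 or radiation library 2 or 3, and the rises 1 without control library 1 or radiation library 3.

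Among cyclins of the G1 phase, Ccnd2 (cyclin D2) stood at 25.3, 23.5 and 24.3 FPKM in controls and 14.1, 14.8 and 15.7 after radiation (-0.68 ± 0.07, limma adjusted p = 0.00022). Ccnd1 and Ccne1, the cyclins D1 and E1, fell by 0.34 and 0.54, but these calls were lost without 4 and 5 of the 6 single libraries (adjusted p of 0.051 to 0.057 and 0.078 to 0.12). Of 12 tested G1 cyclins and CDK inhibitors these 3 fell (10.7% of all genes did) and none rose. The falls were 1 without control library 3 or radiation library 1 or 2 or with values rescaled to a common sum. Cdkn2a, the locus of p16 and ARF, had no fragment in any of the 6 libraries.

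Several of the deepest falls were histone genes. H1f0, the linker histone of resting cells, had 524, 665 and 555 FPKM in controls and 236, 210 and 218 after radiation, the largest fall that passed among named genes (-1.38 ± 0.12, limma adjusted p = 8.3e-05). H3f3b, which encodes the replacement histone H3.3, fell from 424, 472 and 447 FPKM to 278, 247 and 242 (-0.81 ± 0.09, limma adjusted p = 0.00026). Cenpa, the centromeric H3 variant, was the exception in its list, at 17.7, 18.4 and 17.2 FPKM in controls and 32.4, 30.9 and 31.2 after radiation (0.80 ± 0.09). Of 11 tested replacement histones 1 rose and 3 fell (8.31% and 10.7% of all genes tested). Among replication-dependent histones 17 of 70 passed the filter on low values, and 5 of them fell (10.7% of all genes did). Hist1h1c, a linker histone, fell from 90.4, 92.0 and 97.5 FPKM to 45.5, 36.5 and 49.5 (-1.08 ± 0.14, limma adjusted p = 0.00074), and Hist1h2bc from 27.3, 30.2 and 29.8 to 16.9, 14.8 and 17.9 (-0.78). Histone genes of this class are near-identical copies and share reads, so values of single members are uncertain. Their joint share of fragments was 0.0251% ± 0.0005 (SD, n = 3) in controls and 0.0142% ± 0.0014 after radiation (exact two-sided permutation p = 0.10, the smallest that 3 against 3 allows). Replication-dependent histone mRNAs lack a poly(A) tail, and the labels name an mRNA library kit, so these shares describe what the kit captured.

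Myc, a transcription factor of growth and metabolism, stood at 170, 176 and 182 FPKM in controls and 74.0, 68.9 and 79.6 after radiation, without overlap (-1.24 ± 0.09, limma adjusted p = 3.0e-05). Mir17hg, the host RNA of the miR-17-92 cluster and a known Myc target, was at 6.80, 6.83 and 6.29 FPKM in controls and 2.46, 3.46 and 2.64 after radiation (-0.9961 ± 0.13, limma adjusted p = 0.00063). Of 12 tested genes of the Myc network 4 fell (10.7% of all genes did) and none rose, with a median of -0.18. The difference was negative for 8 of them and positive for 4.

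Ribosome biogenesis, a process Myc is known to drive, fell as a group. Of 64 tested genes 43 fell (10.7% of all genes did), none rose, and every one had a negative difference, with a median of -0.41. The groups did not overlap, with lower values after radiation, for 60 of them (25.5% of all genes). Under the 2 rescalings 32 and 37 fell and the median was -0.31 and -0.35. Without control library 2 the count was 26 and without radiation library 2 it was 27. Polr1b, a core subunit of RNA polymerase I, stood at 21.1, 21.7 and 21.0 FPKM in controls and 10.3, 10.6 and 11.7 after radiation (-0.91 ± 0.10, limma adjusted p = 0.00020). Rrp1b, a nucleolar processing factor, fell from 13.8, 14.2 and 13.04 FPKM to 8.48, 8.92 and 9.05 (-0.58 ± 0.07, limma adjusted p = 0.00034). The ribosomal protein genes themselves had 3 falls of 76 (10.7% of all genes fell), with a median of -0.20. These 3 calls were not stable: 0 or 1 was left whichever 1 of the 6 libraries was left out. Leaving out 1 library also lowered the calls over all genes, from 2334 to 1153 to 1597. None of the ribosomal protein genes was called under the 2 rescalings, where their median was -0.09 and -0.14.

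The E-box CACGTG, the palindrome bound by Myc and other helix-loop-helix factors, was found in 24.6% of 57 ribosome biogenesis promoters, 10.6% of those of all genes tested, 17.1% of genes that fell and 6.69% of genes that rose. The promoter of Wdr43, a processing factor of the small subunit, is given with the E-box in capitals as an example chosen after the values were seen (chr17:71615965-71616244, plus strand). Wdr43 stood at 84.7, 89.4 and 86.3 FPKM in controls and 67.1, 65.7 and 64.1 after radiation (-0.40 ± 0.07, limma adjusted p = 0.0025).
Wdr43: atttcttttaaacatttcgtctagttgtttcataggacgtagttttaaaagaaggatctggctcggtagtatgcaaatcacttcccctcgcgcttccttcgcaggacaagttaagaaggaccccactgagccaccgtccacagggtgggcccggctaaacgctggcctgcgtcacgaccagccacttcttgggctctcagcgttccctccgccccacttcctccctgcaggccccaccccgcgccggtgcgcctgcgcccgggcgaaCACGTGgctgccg

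Of 24 nucleotide and folate genes 9 fell (10.7% of all genes did), none rose and 15 did not pass, with a median of -0.27. In a fit of the 6 libraries alone 15 fell and 1 rose. Slc19a1, the reduced folate carrier, went from 18.9, 19.5 and 18.9 FPKM to 8.60, 7.07 and 8.85 (-1.14 ± 0.12, limma adjusted p = 0.00025), the largest change of the list. Ctps, the CTP synthase, was at 72.9, 73.8 and 75.8 FPKM in controls and 49.9, 49.6 and 51.0 after radiation (-0.55 ± 0.09).

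Growth factor signalling through ERK was followed by its feedback and immediate early genes. Of 31 tested 14 fell, 1 rose and 16 did not pass, against falls in 10.7% and rises in 8.31% of all genes, with a median of -0.34. Egr1, a zinc finger factor induced within minutes of a stimulus, stood at 9.24, 8.00 and 9.13 FPKM in controls and 2.94, 3.51 and 3.96 after radiation (-1.14 ± 0.10, limma adjusted p = 7.8e-05). Klf4 went from 368, 360 and 383 FPKM to 230, 222 and 249 (-0.66 ± 0.11), and Dusp5, a phosphatase that acts on ERK, from 5.48, 5.38 and 6.02 to 3.68, 3.40 and 3.20 (-0.58 ± 0.09). Of 22 YAP and SRF targets 8 fell and 1 rose (10.7% and 8.31% of all genes), with 4 or 5 falls without control library 2 or 3 or radiation library 1 or 2. The rise was lost without control library 2 or 3 or radiation library 2 or 3. Ankrd1, a YAP target, was at 134, 143 and 144 FPKM in controls and 82.4, 79.6 and 76.9 after radiation (-0.81 ± 0.08, limma adjusted p = 0.00018). Nppb and Edn1, which encode the B-type natriuretic peptide and endothelin-1, fell by 1.10 and 0.96 on the log2 scale.

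Of 45 stress genes under ATF4 14 fell (10.7% of all genes did), none rose and 31 did not pass, with a median of -0.22. With values rescaled to a common sum 9 fell (median -0.12), and in a fit of the 6 libraries alone 24 fell. The count was 8 or 9 without control library 2 or 3 or radiation library 2. Atf3, a stress-induced factor, stood at 47.3, 56.9 and 48.7 FPKM in controls and 32.0, 27.3 and 29.1 after radiation (-0.77 ± 0.09, limma adjusted p = 0.00044). Ppp1r15a (GADD34, which reverses the block of translation) went from 57.0, 74.7 and 57.5 FPKM to 39.8, 30.4 and 32.8 (-0.86 ± 0.14). Chaperones and stress sensors of the endoplasmic reticulum had 9 rises and 1 fall among 24, against 8.31% and 10.7% of all genes (5 rises without control library 3 or radiation library 1 or 2). Hsp90b1 (GRP94) rose from 110, 118 and 109 FPKM to 186, 184 and 162 (0.65 ± 0.09, limma adjusted p = 0.00086).

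The circadian list had 6 falls of 15 (10.7% of all genes fell) and no rise. Nr1d1 (REV-ERB alpha, a repressor of the clock) went from 26.1, 22.4 and 24.1 FPKM to 15.4, 13.8 and 16.3 (-0.64 ± 0.08, limma adjusted p = 0.00067). Of 40 lysosome and autophagy genes 11 fell (10.7% of all genes did) and none rose. However, 4 and 7 fell under the 2 rescalings, and 5 to 7 without control library 2 or 3 or radiation library 2 or 3. Slc2a1 and Hk2, the glucose transporter and a hexokinase, fell by 0.63 and 0.68 on the log2 scale. Their glycolysis list had 4 falls and 2 rises among 27, against 10.7% and 8.31% of all genes (7 falls in a fit of the 6 libraries alone). The rises were 0 or 1 without any control library or radiation library 2 or 3. None of 24 cholesterol synthesis genes passed in limma (2 had an unadjusted p under 0.05), against 1 fall in voom on the recovered fragments and 4 in a fit of the 6 libraries alone.

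**Figure D3:**
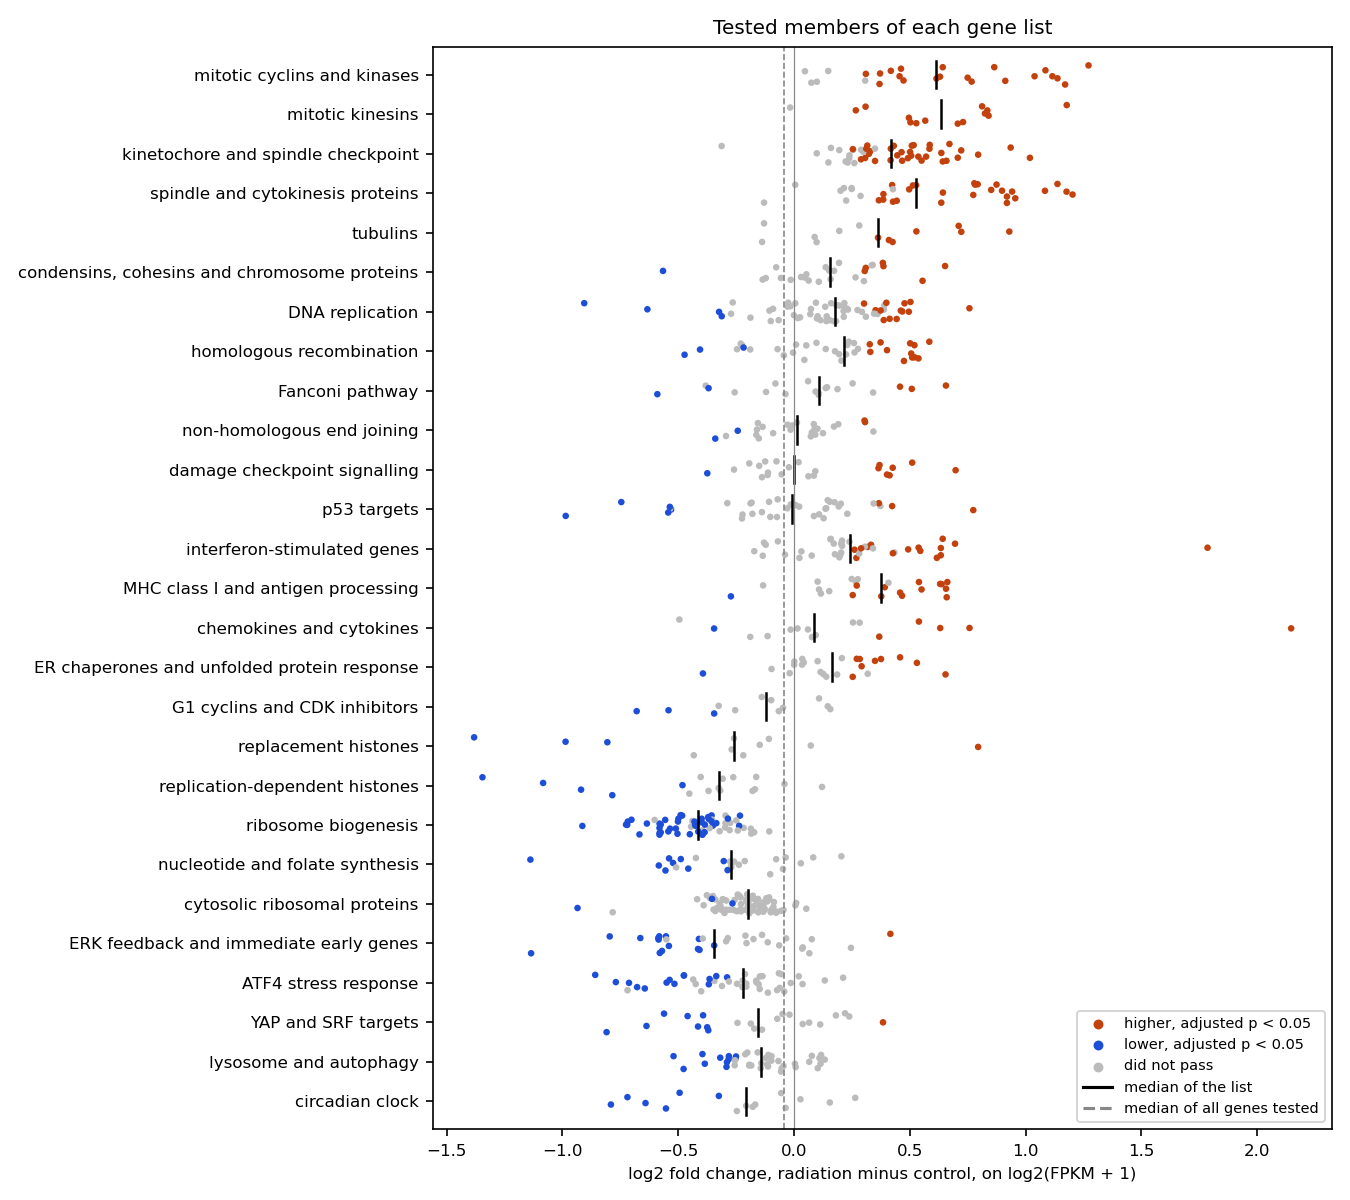
Each point is the log2 fold change, radiation minus control on log2(FPKM + 1), of a tested member of 1 of 27 gene lists; orange and blue points passed an adjusted p under 0.05 upward and downward, grey did not, black ticks are list medians and the dashed line is the median of all genes tested (-0.04). The mitotic lists have medians of 0.42 to 0.64, and ribosome biogenesis has one of -0.41 with no member above 0.

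Interferon-stimulated genes were mostly low. Of 62 such genes 39 passed the filter on low values, and of these 15 rose (8.31% of all genes did), none fell and 24 did not pass, with a median of 0.24. The count depended on the setting: 5 rose when the filter was an FPKM of 5, which leaves fewer members tested. With a replicate block 9 rose, and without any 1 of the 6 libraries 7 to 9 rose. Over all genes these settings also lowered the calls, from 2334 to 1719, 1826 and 1153 to 1597. Ifi27l2a, a mitochondrial interferon-induced protein, stood at 5.85, 6.49 and 4.25 FPKM in controls and 22.6, 23 and 18.6 after radiation, the second largest rise of all named genes (1.79 ± 0.17, limma adjusted p = 9.5e-05). Irf1, a factor that activates antigen presentation, was at 7.27, 7.72 and 7.06 FPKM in controls and 12.3, 12.2 and 11.3 after radiation (0.63 ± 0.06, limma adjusted p = 0.00014). Oas1a, an antiviral synthetase, went from 1.85, 1.72 and 1.87 FPKM to 3.60, 3.24 and 3.28 (0.63 ± 0.07, limma adjusted p = 0.00021). Oas1c and Trim30a rose by 0.70 and 0.62, and both have close paralogs that share reads.

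The spaced interferon element, GAAA repeated after any 2 bases and searched on both strands, was in 51.6% of 31 promoters of tested interferon-stimulated genes, against 2.88% of all genes tested, 4.63% of genes that rose and 1.95% of genes that fell. The Oas1a promoter is given with the element in capitals, as an example chosen after the values were seen (chr5:120907496-120907775, minus strand). There 2 matches overlap, beginning 20 and 14 bases before the start.
Oas1a: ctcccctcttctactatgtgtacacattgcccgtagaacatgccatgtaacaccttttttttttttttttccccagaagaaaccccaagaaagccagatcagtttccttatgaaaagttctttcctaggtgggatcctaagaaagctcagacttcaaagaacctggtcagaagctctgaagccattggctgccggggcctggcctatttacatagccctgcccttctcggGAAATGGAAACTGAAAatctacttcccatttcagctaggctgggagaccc

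Interferon itself was scarce. Ifnb1 had no fragment in any control library and 5, 4 and 1 fragments in the radiation libraries. The ratio was 3.37 when the controls were set to a floor of 3 fragments over the group. That ratio carries the counting error of the 10 radiation fragments and their spread between libraries, so it is not a lower bound. Ifnb1 also had no fragment in the nintedanib libraries and 0, 4 and 1 with the combination. It did not pass the filter and was not tested. Ccl5, a chemokine downstream of the same sensors, had 1, 1 and 0 fragments in controls and 5, 2 and 3 after radiation. None of the 8 tested genes of the interferon and receptor list passed in limma, in voom or at an unadjusted p under 0.05, and Ifnar1 differed by 0.09 ± 0.05. Among 20 sensors and adaptors of cytosolic nucleic acids 5 rose (8.31% of all genes did) and none fell. The rises were 2 or 3 without control library 2 or radiation library 1 or 2. Tmem173 (STING) stood at 5.16, 4.24 and 4.98 FPKM in controls and 6.85, 6.93 and 7.39 after radiation (0.48 ± 0.07, limma adjusted p = 0.0012). Ddx58 (RIG-I, a sensor of RNA) went from 2.34, 2.402 and 2.19 FPKM to 4.22, 4.204 and 4.08 (0.64 ± 0.12). Mb21d1 (cGAS) overlapped at 2.64, 2.23 and 2.33 against 1.94, 2.37 and 1.97 FPKM and did not pass (-0.14 ± 0.10).

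MHC class I and antigen processing genes, which display peptides to T cells, had 13 rises and 1 fall among 23 tested (8.31% and 10.7% of all genes tested), with a median of 0.38. The rises were 6 without control library 3 and 7 without control library 1 or radiation library 1. Psmb8, a catalytic subunit of the immunoproteasome, was at 4.89, 7.42 and 5.99 FPKM in controls and 11.0, 10.6 and 8.87 after radiation (0.66 ± 0.14, limma adjusted p = 0.0090). Tapbp, which loads peptides, stood at 38.2, 40.1 and 39.8 FPKM in controls and 54.7, 50.3 and 59.9 after radiation (0.47 ± 0.09, limma adjusted p = 0.0069). B2m, the shared light chain, went from 622, 649 and 666 FPKM to 1025, 877 and 776, without overlap (0.46 ± 0.14, limma adjusted p = 0.046), a call lost without 5 of the 6 single libraries (adjusted p of 0.10 to 0.15). The heavy chain H2-K1 was at 135, 157 and 143 FPKM in controls and 204, 178 and 190 after radiation (0.39 ± 0.09, limma adjusted p = 0.015), and lost its call without control library 1 or 3 or radiation library 1 (adjusted p of 0.053 to 0.057). H2-D1 overlapped, at 269, 314 and 282 against 372, 306 and 350 FPKM, and did not pass (limma adjusted p = 0.12). The fall was Nlrc5, the transactivator of MHC class I, from 9.84, 9.07 and 9.83 FPKM to 7.50, 7.58 and 8.20 (-0.27 ± 0.08, limma adjusted p = 0.034), a call lost without any control library or radiation library 1 or 2. MHC class I heavy chains are close paralogs that share reads, so the values of single members are uncertain.

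Among ligands of immune receptors, 4 of 15 tested rose and 1 fell (8.31% and 10.7% of all genes tested). The rises were 1 or 2 without any control library or radiation library 2. Pvr, the poliovirus receptor and a ligand of TIGIT and CD226, fell from 21.99, 22.8 and 23.3 FPKM to 16.5, 16.2 and 16.2 (-0.45 ± 0.06, limma adjusted p = 0.00082). Raet1d, an NKG2D ligand, rose by 0.64 ± 0.14 (limma adjusted p = 0.011). Cd274 (PD-L1) was at 1.55, 1.75 and 1.76 FPKM in controls and 2.87, 2.35 and 1.97 after radiation, without overlap, and did not pass (0.33 ± 0.11, limma adjusted p = 0.060). It passed in 4 of 16 other settings, among them values rescaled by fragment totals (adjusted p = 0.044) and without radiation library 3 (0.037). Of 16 tested chemokines and cytokines 5 rose and 1 fell (8.31% and 10.7% of all genes tested), with 3 or 4 rises without any 1 of the 6 libraries. Ccl9, a chemokine of the CC family that acts on myeloid cells, showed the largest rise among named genes (chr11:83572919-83578636). It stood at 3.84, 4.35 and 4.39 FPKM in controls and 22.9, 22.2 and 20.9 after radiation (2.15 ± 0.18, limma adjusted p = 6.7e-05). Il34 rose from 24.0, 24.5 and 24.5 FPKM to 33.0, 36.0 and 38.7 (0.54 ± 0.08), and Csf1, which acts on the same receptor, fell from 78.7, 86.2 and 79.8 to 61.5, 65.2 and 65.3 (-0.34 ± 0.07, limma adjusted p = 0.0087). Of 22 tested NF-kB genes 4 fell and none rose, against 10.7% and 8.31% of all genes tested. The falls were 1 or 2 without control library 2 or 3 or radiation library 2 or 3. Under the 2 rescalings 1 and 2 fell, and 1 rose in each. Of 41 tested TGF-beta and extracellular matrix genes 6 rose, 1 fell and 34 did not pass, with a median of 0.10. All genes tested rose in 8.31% and fell in 10.7%, and without control library 3 the rises of the list were 3. Loxl2, a lysyl oxidase, stood at 2.60, 2.89 and 3.00 FPKM in controls and 7.08, 6.94 and 7.12 after radiation (1.07 ± 0.06, limma adjusted p = 1.4e-05). Tgfb2 fell from 3.09, 2.92 and 3.10 FPKM to 1.66, 1.72 and 1.52 (-0.62 ± 0.08).

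Outside the lists, the rises named by size were Acsbg1, a fatty acyl-CoA synthetase, Tnnc1, a troponin, AU021092, Gas2l3 and Prr11. Acsbg1 stood at 3.63, 3.74 and 3.73 FPKM in controls and 9.80, 9.78 and 10.7 after radiation (1.24 ± 0.08, limma adjusted p = 1.4e-05). Tnnc1 went from 4.05, 4.50 and 4.06 FPKM to 9.22, 12.1 and 10.1 (1.14 ± 0.13). Falls outside the lists included Krt80, a keratin, from 20.7, 20.5 and 20.3 FPKM to 8.91, 9.98 and 10.8 (-0.98 ± 0.13, limma adjusted p = 0.00087). The call of Snord83b, a short gene with 11, 15 and 15 fragments in controls and 6, 7 and 2 after radiation, was lost without control library 2 or 3 or radiation library 3 (adjusted p of 0.051 to 0.064).

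The same dose was also given with nintedanib, an inhibitor of VEGF, FGF and PDGF receptor kinases, and the 6 libraries with the drug give radiation effects that share no sample with those above. In them 706 genes changed (5.76%), 395 upward (3.22%) and 311 downward (2.54%). These calls are not fully separate, since the fit pooled the spread over all 12 libraries and the filter used the 6 without the drug. Correlations between libraries were 0.9704 to 0.9834 within nintedanib alone and 0.9825 to 0.9863 within the combination, against 0.984 to 0.988 within controls and radiation alone. Of the 1019 genes that rose without the drug 922 (90.5%) had the same sign with it, and of the 1315 that fell 1122 (85.3%) did, against 63.2% of all genes tested. Fewer also passed with the drug in the same direction: 290 of the rises (28.5%) and 198 of the falls (15.1%). In the opposite direction 1 of the rises and 2 of the falls passed. The median change was 0.45 without and 0.24 with the drug for genes that rose, and -0.39 and -0.16 for genes that fell; genes selected in 1 comparison are biased toward larger values in it. Of the 118 mitotic genes 64 rose with the drug (median 0.39). Aurka differed by 1.12 without and 1.13 with the drug, and Ccl9 by 2.15 and 1.65. Of the 64 ribosome biogenesis genes 1 fell with the drug, with a median of -0.07. Myc fell by 1.24 on the log2 scale without and by 0.36 with the drug, where it stood at 41.2, 37.9 and 36.0 FPKM with nintedanib alone and 26.7, 32.4 and 30.2 with radiation added. The test of the difference between the radiation effects passed for 1 gene (0.00816%), Egr1, and 1645 genes (13.4%) had an unadjusted p under 0.05. Egr1 lay below an FPKM of 1 in all 6 libraries with the drug, with little room for a fall there. For Myc the difference between the radiation effects was 0.88 ± 0.12 (limma adjusted p = 0.070). No mitotic gene passed the test of this difference (smallest limma adjusted p = 0.21), and no ribosome biogenesis gene did.

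**Figure D4:**
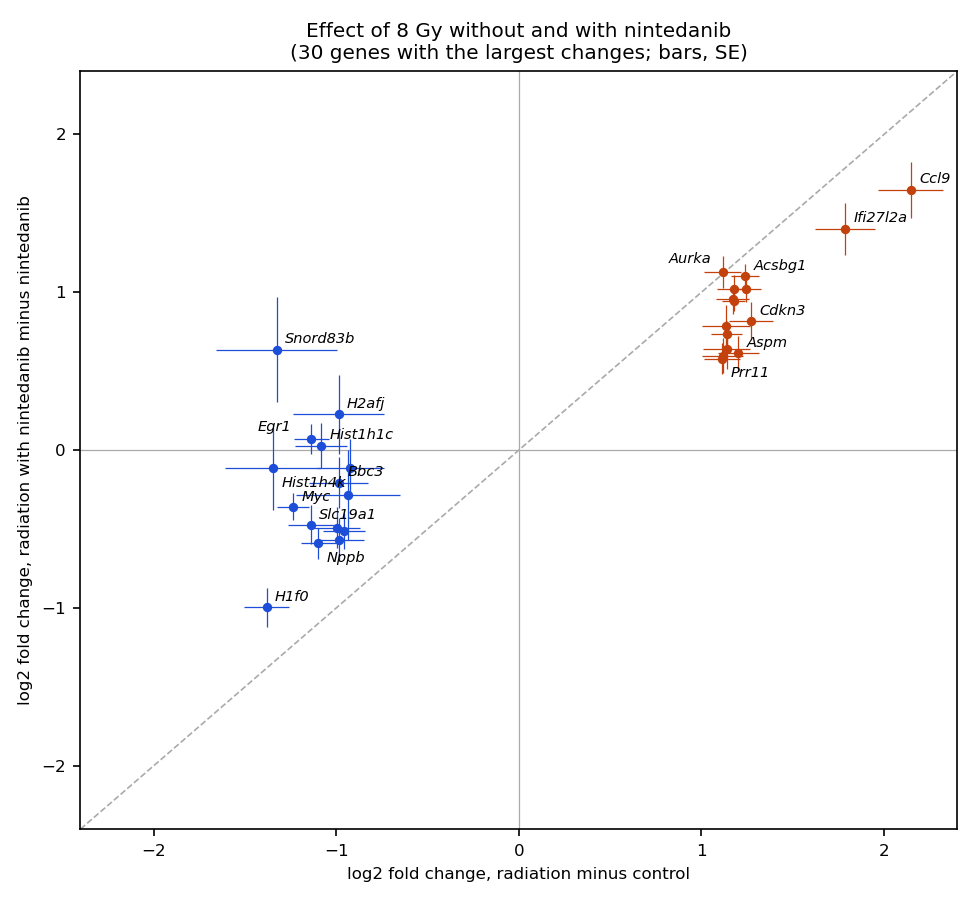
The 30 genes with the largest changes after radiation, with the log2 fold change without nintedanib on the horizontal and with it on the vertical axis; bars are SE, the dashed line marks equal changes, orange genes rose and blue genes fell without the drug. All 15 rises are above 0 on both axes, while falls such as Egr1 (-1.14 and 0.07) and Hist1h1c (-1.08 and 0.03) lie near 0 on the vertical axis.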

How the data were processed

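RNA was sequenced from 12 MC38 libraries. The authors deposited FPKM values for 54532 genes with gene names, coordinates and gene model lengths, per the file headers. The submitters' processing notes name GRCm38 (mm10). Which aligner, counter, annotation and strand setting were used is not given in the sources here. Total RNA was made into libraries with an mRNA kit, per the labels' protocols. Replicates are the labelled repeats. The values times gene length were whole multiples of 1 step in 100% of cases (tolerance 0.01), which gave the fragments of each library (16103528 to 18196615).

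Genes that reached an FPKM of 1 in 3 or more of the 6 control and radiation libraries were tested on log2(FPKM + 1), a scale that understates changes of low genes, with limma 3.58.1 in R 4.3.3. The fit held all 12 libraries (8 residual degrees of freedom), empirical Bayes with an intensity trend and two-sided tests. The Benjamini-Hochberg adjustment covered all 12262 genes, with a threshold of 0.05. On simulated data the fit recovered 42% of changes of 0.5 (log2) and 86% of changes of 1, with 2 false calls. The simulated counts took the means and spread of the control libraries for all 4 groups, with far fewer genes changed than were called here. These rates therefore need not hold for the real comparison.

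The members and gene lists were chosen with earlier results of these data known. Genes were named by rule: the 15 largest rises and the 15 largest falls with a mean FPKM of 5 or more in the higher group and no overlap, predicted symbols left out, up to 6 members per list by adjusted p, and defining members of the pathways. Trp53, Gtse1, Mki67, Aurkb, Nlrc5, Ccl5, Cdkn2a, Gapdh and S100a4 were named after their values were seen. Lists were described by counts and medians, with no test of a list. Replicates differed by more than sampling noise (chi-square per gene of 4.30 to 12.2), so none was counted as a duplicate. Alternatives were another pseudocount, other filters, 2 rescalings, voom with TMM scaling on the recovered fragments, protein-coding genes only, no trend, a replicate block, the 6 libraries alone and leaving out single libraries.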

Additional observations from a re-analysis of the deposited data

Results flagged for a closer look

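Egr1 was the 1 gene that passed the test of the difference between the radiation effects with and without nintedanib. Its level after radiation fell by 1.14 on the log2 scale without the drug and differed by 0.07 with it, a difference of 1.21 ± 0.14 (SE; limma adjusted p = 0.026 over 12262 genes). With nintedanib alone it stood at 0.600, 0.779 and 0.646 FPKM and with the combination at 0.744, 0.787 and 0.744, against 8.00 to 9.24 in controls. All 6 values with the drug are below the FPKM of 1 used as the filter, which Egr1 passed through the libraries without the drug. Little room for a fall was left at that level, and the test cannot separate this from a changed response. The cause of the difference was not tested. The adjusted p ranged from 0.0037 to 0.19 over the other settings, and the call was lost with a pseudocount of 0.1 (0.076), with no filter (0.054) and with a replicate block (0.16). The difference was 1.48 with a pseudocount of 0.1 and 1.52 in voom, where the call was kept (voom adjusted p = 0.0496). Leaving out single libraries ended the call without any control library, without radiation library 1 or 2, without nintedanib library 2 or 3 and without combination library 2 or 3, with differences of 1.12 to 1.27.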

How the results depend on the processing

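The 2334 changed genes were 1719 to 2848 in 11 other settings and 1153 to 1597 without single libraries; no called gene reversed. The 72 genes changed at least 2-fold were 196 with a pseudocount of 0.1, 202 with voom, 39 with an FPKM of 5 as the filter, 39 with protein-coding genes only, and 63 to 82 without single libraries. The 1 gene whose radiation effect differed with nintedanib became 0 with a pseudocount of 0.1, 2 with no filter, 3 with an FPKM of 5, 3 after rescaling to a common sum, 10 with voom, 4 with protein-coding genes only, and 0 to 5 without single libraries. Same-numbered replicates did not deviate together (correlations of -0.18, -0.04 and 0.08); the fit with the replicate number as a block gave 1826 changed genes, 73 at least 2-fold and 0 for the difference. Of 234 named genes with a call, 150 kept it in every setting run; over the 17 other settings 433 of 4055 values lost a call, 5 gained one and none reversed. The cause of these shifts was not tested. Depth limits genes with few fragments: with about 16.4 fragments per FPKM in a model of 1 kb, members under an FPKM of 1 were not tested.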

Other observations

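Gapdh, often used as a reference transcript, varied widely among replicates in the deposited table. It had 1728, 844 and 183 fragments in the controls and 108, 146 and 142 after radiation, a difference of -1.92 (log2) that did not pass (limma adjusted p = 0.21). The gene has many near-identical processed copies that share its reads, so its value is uncertain, and the role of this in the spread was not tested. S100a4 also varied within a group, at 97.7, 91.9 and 115 FPKM in controls and 64.1, 28.3 and 92.2 after radiation.

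Among genes below the filter on low values, Cd80, a co-stimulatory ligand also listed as a p53 target, stood at 0.130, 0.140 and 0.0938 FPKM in controls and 0.578, 0.564 and 0.576 after radiation. Ptprc, a leukocyte marker, had 1, 0 and 0 fragments in controls and 5, 10 and 9 after radiation, while Cd3e and Itgam stayed at 0. Neither was tested, and both were singled out after their values were seen.

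Rises and falls were unevenly spread over expression level. With genes in 4 equal groups by mean FPKM, 343 rose and 131 fell in the lowest group, and 190 rose and 463 fell in the highest. Long intergenic RNAs took 0.507% ± 0.021 (SD, n = 3) of fragments in controls and 0.637% ± 0.052 after radiation (exact two-sided permutation p = 0.10, the smallest possible), and 32 of 239 tested rose while 19 fell, against 8.31% and 10.7% of all genes tested.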
